A study of Arabidopsis thaliana with 9 samples.

Results

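Alpha-expansins are secreted proteins that loosen the plant cell wall, and the 9 alpha-expansin genes described here are EXPA1, EXPA3, EXPA4, EXPA5, EXPA6, EXPA8, EXPA10, EXPA11 and EXPA15 of Arabidopsis thaliana. They were taken by gene identifier from the 38194 genes in the files, and belong to the 26 alpha-expansins of this species. The choice was made with earlier results of these data known, so that the 9 genes are not an unselected set to compare with all genes. All 9 passed the filter on low counts, as did 20021 genes in all.

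RNA-Seq was performed on whole seedlings that were 4 days old and had been kept at 23 °C with 16 h of light and 8 h of dark per day. The 3 groups have 3 libraries each, with replicate letters A, B and C. Plants of the Columbia accession without a transgene served as WT. The line labelled OE APOLO carries the Arabidopsis long noncoding RNA (lncRNA) APOLO behind the viral 35S promoter, which is active in most plant tissues. The line labelled OE UPAT carries the human lncRNA UPAT behind the same promoter. Per the study's methods, each line stands for 1 transgenic line in the Columbia background, so that an effect of the insertion cannot be told apart from that of the lncRNA. The replicates are described there as independent biological replicates.

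The APOLO transcript (AT2G34655) had 2 counts in each WT library and 1, 3 and 3 counts in the OE APOLO-labelled libraries A, B and C, all at or under the floor of 3 counts. Its increase was thus not detectable, and every direction given for that group rests on the label. UPAT has no row among the Arabidopsis genes, so that the label of its group was not checked. The gene counts summed to between 7883571 and 14078290 per library, and the 3 OE UPAT libraries were the smallest. Markers of green tissue, roots, root hairs and guard cells were present in all 9 libraries. OE APOLO C stood apart with a summed root hair marker level of 126 CPM (a gene's count relative to its library size, scaled by edgeR's TMM factors), against 63.6 and 65.1 in OE APOLO A and B and 67.7 to 77.4 in WT. PRP3 alone made up most of this sum in OE APOLO C (87.65 CPM). PRP3, LRX1 and COBL9 were highest in that library, while RHD6 (0.863 CPM) was at its lowest of all 9 libraries. RSL4 (6.64 CPM) lay below WT A (6.76 CPM). The 5 root hair markers summed to 53.0, 41.3 and 47.4 CPM in the OE UPAT libraries, all below WT. All 5 had negative log2 fold changes in OE UPAT. None of these 5 root hair markers was past the threshold against WT in either line. The 5 guard cell markers also summed highest in OE APOLO C, to 105 CPM against 73.3 to 86.6 in the other 8 libraries. The 4 seed markers summed to 20.4 CPM in OE APOLO A, 8.89 in B and 0.518 in C, against 1.40 to 2.59 in WT and 0.785 to 3.27 in OE UPAT. CRA1 (10.99 CPM) and CRU3 (8.225 CPM) made up most of the sum in OE APOLO A. OLEO1 (0.523 CPM there) lay within the range of WT (0.389 to 0.689 CPM). The 5 root markers summed to 1721 to 1993 CPM in WT, 2244 to 2842 in the OE APOLO-labelled libraries and 2183 to 2400 in OE UPAT, with none past the threshold. PYK10 alone made up most of this sum (a mean of 1768 CPM in WT), with log2 fold changes of 0.42 in OE APOLO and 0.32 in OE UPAT. Those of CASP1 (-0.10 and -0.06) and CO2 (-0.24 and -0.27) were negative in both. Of the 5 green tissue markers, 1 was called in OE APOLO (6.54% of all genes) and 3 in OE UPAT (19.8% of all genes), all higher. CAB1 and LHCA1 were not called, with log2 fold changes of -0.12 and -0.05 in OE UPAT. The 5 markers summed to 42680 to 51670 CPM in WT, 47140 to 53510 in the OE APOLO-labelled libraries and 48470 to 56910 in OE UPAT. CAB1 alone made up most of the sum in WT (a mean of 28030 CPM). The part of these marker levels in the results below was not tested. In RNA from whole seedlings, fewer cells of a type and less RNA per cell cannot be told apart.

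Expansins act on the noncovalent contacts between cellulose and the other wall polymers and let a wall under turgor extend without cutting its chains. They work best in an acidic wall, which the plasma membrane proton pumps (the AHA family) provide, and PP2C.D phosphatases hold these pumps back. Auxin, brassinosteroids and gibberellins, the hormones of hypocotyl and root elongation, are known to act on many expansin genes. Among the members, EXPA1 is known for its role in stomatal opening, EXPA5 as a brassinosteroid-responsive gene, and EXPA10 for its effect on leaf and petiole cell size.

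The 9 genes lie on chromosomes 1, 2 and 3, with 5 of them on chromosome 2, and encode proteins of 252 to 275 residues. Over 36 pairs, the identity of the predicted proteins ranged from 53.2% to 80.9% with a median of 63.0%. The closest were EXPA4 and EXPA6 (80.9%), EXPA3 and EXPA6 (78.6%) and EXPA10 and EXPA15 (78.2%). EXPA11 was the most distant, with 53.2% against EXPA5. Despite this likeness, none of the 75-base stretches of any member's transcript occurred elsewhere in the genome, no member overlapped another annotated gene, and no member had a count split between features. Reads of this full length from a member thus have no second exact match in the genome. Reads shortened by trimming and matches with mismatches were not tested.

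To compare levels between genes, CPM was divided by exonic length in kb. In WT, EXPA1 was the highest with 33.4 ± 0.36 CPM per kb (SD, n = 3), followed by EXPA3 with 29.4 ± 1.1, EXPA11 with 25.3 ± 1.3, EXPA8 with 21.97 ± 0.70, EXPA6 with 14.5 ± 0.98 and EXPA4 with 10.4 ± 0.88. The last places were taken by EXPA15 with 4.10 ± 0.13, EXPA5 with 3.41 ± 0.95 and EXPA10 with 2.43 ± 0.43. The ranges of neighbours in this order overlapped only for EXPA15 with EXPA5 and for EXPA5 with EXPA10. The order was different in both other groups. In the OE APOLO-labelled libraries, EXPA11 (43.1 ± 4.3), EXPA3 (41.9 ± 4.5), EXPA1 (38.6 ± 3.8) and EXPA8 (36.2 ± 5.1 CPM per kb) had ranges that overlapped from neighbour to neighbour, and EXPA15 was the lowest at 2.27 ± 0.60. In OE UPAT, EXPA1 stayed first with 40.7 ± 6.9 CPM per kb, EXPA6 came next with 28.3 ± 3.7 and overlapped EXPA3 at 28.1 ± 0.86, and EXPA10 was the lowest with 4.15 ± 0.092. EXPA5 took 2.35% of the summed level of the 9 genes in WT, 3.82% in the OE APOLO-labelled libraries and 7.91% in OE UPAT.

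The summed level of the 9 genes was 143 to 146 CPM per kb in the WT libraries, 199 to 226 in those labelled OE APOLO and 164 to 185 in OE UPAT. These ranges did not overlap. The sum is given as a description, since the members move in different directions.

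**Figure D1:**
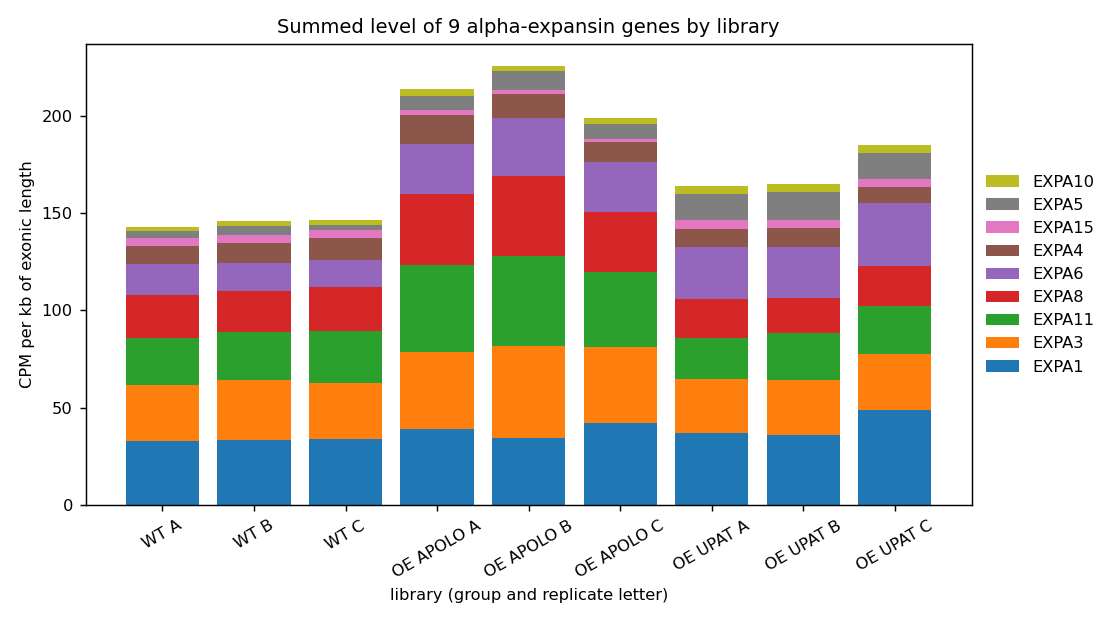
Summed level of the 9 alpha-expansin genes in each library, in CPM per kb of exonic length, with 1 colour per gene and 1 bar per library. The bars of the OE APOLO-labelled libraries (199 to 226) stand above those of OE UPAT (164 to 185) and WT (143 to 146), and the EXPA5 segment is largest in OE UPAT.

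The first comparison asked which members differed between each line and WT, and between the lines. Calls were made at an adjusted p under 0.01 (Benjamini-Hochberg) over all 20021 genes in edgeR's quasi-likelihood test. In the OE APOLO-labelled libraries, 6 of 9 members were called against WT, where 6.54% of all genes tested were called. EXPA3, EXPA5, EXPA6, EXPA8 and EXPA11 were higher (5 of 9, against 4.27% of all genes) and EXPA15 was lower (1 of 9, against 2.27%). In OE UPAT, 3 members were called against WT (19.8% of all genes). All 3 were higher, namely EXPA5, EXPA6 and EXPA10 (10.1% of all genes), and none was lower (9.72% of all genes). Between the lines, 5 members were called (17.8% of all genes). EXPA5 and EXPA15 were higher in OE UPAT (8.49% of all genes), and EXPA3, EXPA8 and EXPA11 were lower there (9.36% of all genes).

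The median log2 fold change of the 9 members was 0.51 in the OE APOLO-labelled libraries against WT, 0.15 in OE UPAT against WT and 0.06 between the lines. That of all genes tested was within 0.01 of 0 in each comparison. The libraries of both groups did not overlap for 7 members (31% of all genes), 6 members (46.7%) and 7 members (41.7%) in the same order. Both contrasts with WT use the same 3 WT libraries, so that their values are set side by side and not correlated. Every one of these p-values reflects the spread between libraries of the same group. This spread was estimated in 1 fit over all 9 libraries, so that the group left out of a comparison also enters its p-values.

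**Figure D2:**
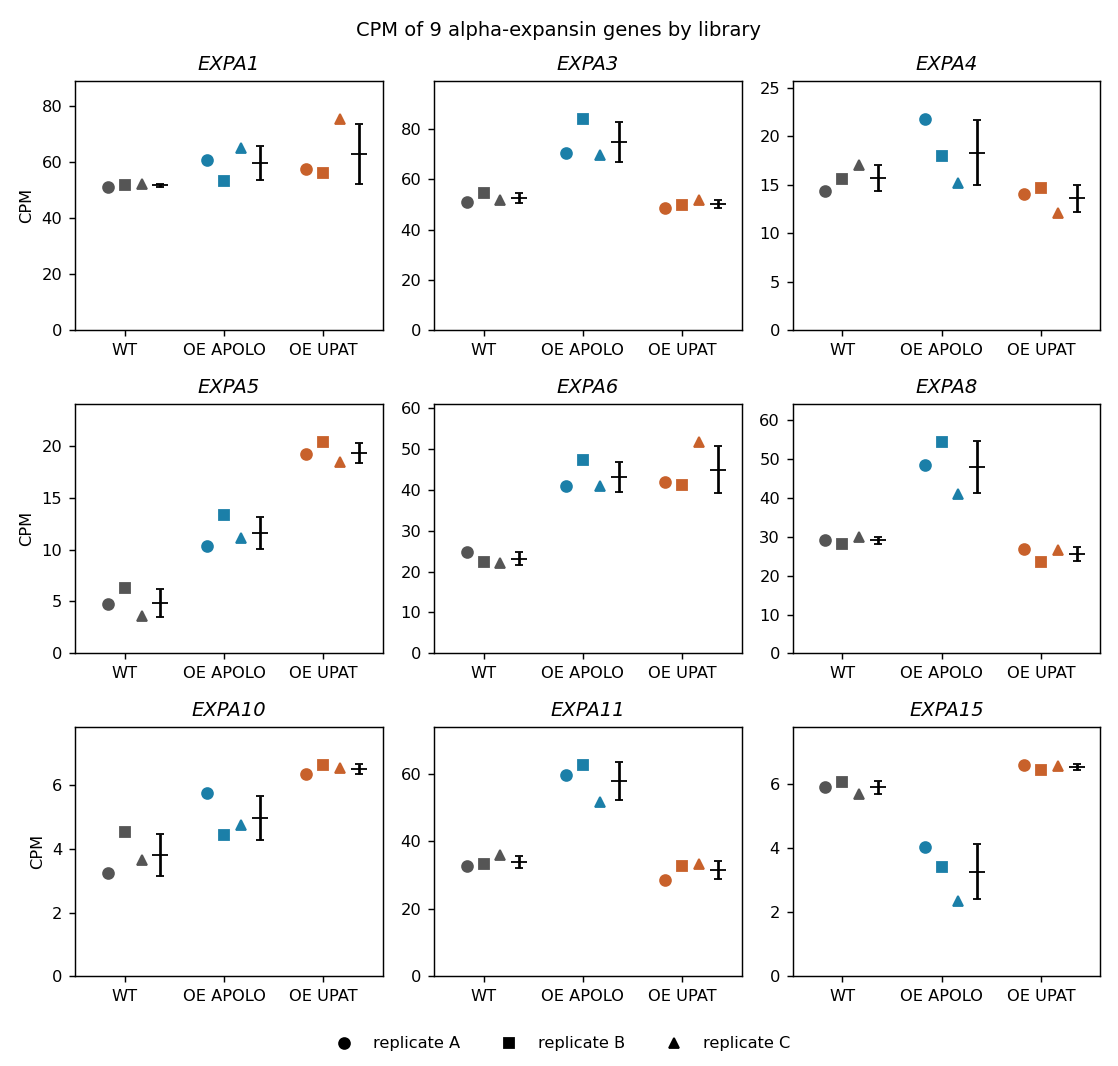
CPM of each alpha-expansin gene in each library, with a panel per gene and an axis that starts at 0. Symbols mark replicates A, B and C, and the black bar beside each group is the mean ± SD (n = 3). EXPA3, EXPA8 and EXPA11 are high only in the group labelled OE APOLO, EXPA5 climbs from WT over OE APOLO to OE UPAT, and EXPA15 is low in OE APOLO.

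EXPA3, EXPA8 and EXPA11 shared a pattern. Each was higher in the OE APOLO-labelled libraries than in WT, did not pass the threshold in OE UPAT against WT, and differed between the lines. All 3 are among the 4 most abundant members per kb in WT.

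EXPA11 (AT1G20190) lies on chromosome 1 from 6998335 to 6999839 on the minus strand (TAIR10.1). It had 32.7, 33.2 and 36.01 CPM in WT A, B and C, 59.5, 62.6 and 51.5 CPM in the OE APOLO-labelled libraries and 28.5, 32.8 and 33.1 CPM in OE UPAT. All OE APOLO-labelled libraries lay above all others, while OE UPAT overlapped WT. The log2 fold change was 0.77 ± 0.085 against WT (SE; adjusted p = 4.05e-05) and -0.88 ± 0.090 in OE UPAT against OE APOLO (adjusted p = 5.61e-06). In OE UPAT against WT it was -0.11 with a 95% interval from -0.31 to 0.09 (adjusted p = 0.391).

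EXPA8 (AT2G40610, chromosome 2 from 16948791 to 16950705, minus strand) had 29.3, 28.1 and 29.9 CPM in WT and 48.5, 54.4 and 41.1 CPM in the OE APOLO-labelled libraries. In OE UPAT it had 26.8, 23.6 and 26.7 CPM. The OE APOLO-labelled libraries were again the highest, and the OE UPAT libraries lay below all of WT without passing the threshold (log2 fold change -0.18, 95% interval -0.40 to 0.04, adjusted p = 0.199). Against WT the increase in the OE APOLO-labelled libraries was 0.73 ± 0.094 (SE; adjusted p = 0.000135) and the difference between the lines was -0.91 ± 0.10 (adjusted p = 1.10e-05), both on the log2 scale.

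EXPA3 (AT2G37640, chromosome 2 from 15787523 to 15790139, minus strand), listed as EXP3 in RefSeq, had 50.8, 54.6 and 51.8 CPM in WT. It had 70.6, 83.9 and 69.6 CPM in the OE APOLO-labelled libraries and 48.8, 49.9 and 51.8 CPM in OE UPAT. OE UPAT overlapped WT, and OE APOLO lay above both. The increase in the OE APOLO-labelled libraries was the smallest of the 3 genes, with a log2 fold change of 0.51 ± 0.078 (SE; adjusted p = 0.000474). The lines differed by -0.58 ± 0.080 (adjusted p = 9.55e-05), and OE UPAT stood at -0.06 against WT with a 95% interval from -0.24 to 0.11. The calls of all 3 genes, in OE APOLO against WT and between the lines, held under each of 18 alternative settings at the same threshold. None of them reached an absolute log2 fold change of 1.

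The 250 bases before the annotated start of these 3 genes are shown because the genes moved together. They were read from the RefSeq genome TAIR10.1, in the direction of transcription, and capitals mark matches to the motifs searched.
EXPA3: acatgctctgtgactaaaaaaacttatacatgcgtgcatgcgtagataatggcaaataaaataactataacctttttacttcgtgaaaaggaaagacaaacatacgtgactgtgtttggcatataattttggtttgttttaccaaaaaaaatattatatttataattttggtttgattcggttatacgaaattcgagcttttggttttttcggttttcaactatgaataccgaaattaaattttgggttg
EXPA8: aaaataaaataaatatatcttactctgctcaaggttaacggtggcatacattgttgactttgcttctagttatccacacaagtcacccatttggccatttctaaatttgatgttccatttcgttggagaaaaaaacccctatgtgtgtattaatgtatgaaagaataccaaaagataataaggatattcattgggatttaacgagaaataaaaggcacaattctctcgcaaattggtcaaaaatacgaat
EXPA11: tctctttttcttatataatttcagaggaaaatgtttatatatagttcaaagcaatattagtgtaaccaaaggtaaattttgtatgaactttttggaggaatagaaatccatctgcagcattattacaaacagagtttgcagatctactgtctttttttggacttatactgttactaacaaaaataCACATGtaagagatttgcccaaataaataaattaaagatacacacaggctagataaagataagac
The motifs were the G-box CACGTG, the E-box CACATG bound by PIF factors, the brassinosteroid-related CGTGTG and CGTGCG, the auxin response element TGTCTC and GAAGAA, the box named for APOLO. Each was searched on both strands from 250 bases before to 50 bases after the start, and CACATG may overlap its own reverse complement. Of 27443 promoters of the same length, 7.68% held CACGTG, 12.9% CACATG, 6.52% CGTGTG, 1.96% CGTGCG, 14.2% TGTCTC and 39.4% GAAGAA. The 3 genes have no motif in common. EXPA11 holds CACATG 65 bases before its start and again at the start itself. EXPA8 holds TGTCTC only after its start, and EXPA3 holds none of the 6. A match is a description of letters, not a binding site.

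EXPA5 and EXPA6 were higher than WT in both lines. EXPA5 (AT3G29030) lies on chromosome 3 from 11011262 to 11013451 on the minus strand. It had 4.75, 6.27 and 3.58 CPM in WT, 10.3, 13.3 and 11.1 CPM in the OE APOLO-labelled libraries and 19.2, 20.4 and 18.4 CPM in OE UPAT. The 3 groups were separate, in the order WT, OE APOLO, OE UPAT. The log2 fold change against WT was 1.24 ± 0.17 (SE; adjusted p = 0.000170) in the OE APOLO-labelled libraries and 1.98 ± 0.16 (adjusted p = 5.19e-07) in OE UPAT, where the mean was 3.98-fold that of WT. The lines differed by 0.74 ± 0.15 (adjusted p = 0.00183). Without OE UPAT B the adjusted p of this last difference was 0.0114. Both increases over WT held under all 18 alternatives.

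EXPA6 (AT2G28950, chromosome 2 from 12431338 to 12433796, minus strand) had 24.9, 22.5 and 22.01 CPM in WT and 41.1, 47.2 and 40.9 CPM in the OE APOLO-labelled libraries. In OE UPAT it had 42.0, 41.2 and 51.7 CPM. Both lines lay above WT and overlapped each other. The log2 fold changes against WT were 0.90 ± 0.097 (SE; adjusted p = 3.37e-05) and 0.95 ± 0.099 (adjusted p = 4.61e-06). The difference between the lines was 0.06 with a 95% interval from -0.15 to 0.26, so that a difference of that size either way was not resolved.

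The stretches before the starts of these 2 genes are shown because they were the members called against WT in both lines.
EXPA5: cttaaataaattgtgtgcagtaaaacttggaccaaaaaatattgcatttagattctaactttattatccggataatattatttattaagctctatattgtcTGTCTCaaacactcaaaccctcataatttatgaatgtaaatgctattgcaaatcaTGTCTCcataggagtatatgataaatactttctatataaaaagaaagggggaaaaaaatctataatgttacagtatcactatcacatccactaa
EXPA6: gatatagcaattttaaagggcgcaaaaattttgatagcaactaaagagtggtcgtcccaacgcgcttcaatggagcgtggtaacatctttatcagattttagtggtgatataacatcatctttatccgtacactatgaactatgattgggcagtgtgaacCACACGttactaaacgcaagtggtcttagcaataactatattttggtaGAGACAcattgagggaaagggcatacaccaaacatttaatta
Both hold the auxin response element, which 14.2% of all promoters hold. EXPA5 has 2 matches to TGTCTC, and EXPA6 has 1 on the opposite strand (GAGACA) together with CACACG, the reverse complement of CGTGTG. Over the 9 members, 4 held TGTCTC (EXPA5, EXPA6, EXPA8 and EXPA10), 3 held CACATG (EXPA1, EXPA10 and EXPA11), 2 held CGTGTG (EXPA1 and EXPA6) and 2 held GAAGAA (EXPA10 and EXPA15, in both after the start). None held CACGTG or CGTGCG. EXPA4 held no motif of the 6.

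EXPA10 (AT1G26770, chromosome 1 from 9259432 to 9261313, plus strand) was called in OE UPAT against WT. It is one of the weakly expressed members, with 45 to 77 counts per library. It had 3.24, 4.55 and 3.65 CPM in WT, 5.76, 4.44 and 4.75 CPM in the OE APOLO-labelled libraries and 6.36, 6.64 and 6.54 CPM in OE UPAT. OE UPAT lay above all other libraries, and the OE APOLO-labelled libraries overlapped WT. The log2 fold change was 0.77 ± 0.17 (SE; adjusted p = 0.00346) in OE UPAT and 0.38 with a 95% interval from 0.02 to 0.75 (adjusted p = 0.168) in the OE APOLO-labelled libraries. The direct comparison of the lines did not pass the threshold (0.38 ± 0.17, adjusted p = 0.104). The call in OE UPAT was lost in 6 of 18 alternatives, with an adjusted p of up to 0.0222. These were leaving out WT A, WT C or any of the 3 OE UPAT libraries, and thinning all libraries to the smallest one.

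EXPA15 (AT2G03090, chromosome 2 from 916806 to 918671, minus strand) was the member that fell in the OE APOLO-labelled libraries. Its CPM was 5.90, 6.06 and 5.68 in WT, 4.04, 3.41 and 2.33 in the OE APOLO-labelled libraries and 6.58, 6.43 and 6.54 in OE UPAT. These values rest on 27 to 88 counts per library. The OE APOLO-labelled libraries were the lowest, with OE APOLO C, the library with the highest root hair marker sum, below the rest. The log2 fold change was -0.84 ± 0.18 (SE; adjusted p = 0.00543) against WT, and OE UPAT was higher than OE APOLO by 0.99 ± 0.19 (adjusted p = 0.00104). OE UPAT against WT gave 0.15 with a 95% interval from -0.22 to 0.51. The fall against WT lost its call in 7 of 18 alternatives, namely in the fit of these groups alone and without WT A, WT B, WT C, OE APOLO B, OE APOLO C or OE UPAT B, with an adjusted p between 0.0106 and 0.0228. Without OE APOLO C the log2 fold change was -0.66. The difference between the lines kept its call in all 18.

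EXPA1 and EXPA4 were not called in any comparison. EXPA1 (AT1G69530, chromosome 1 from 26141726 to 26143538, plus strand), the most abundant member in WT per kb, had 51.2, 51.7 and 52.3 CPM in WT, 60.7, 53.4 and 65.1 CPM in the OE APOLO-labelled libraries and 57.7, 56.1 and 75.4 CPM in OE UPAT. Every library of both lines lay above WT, and OE UPAT C was far above the other libraries of its group. The log2 fold changes of 0.21 ± 0.10 (SE; adjusted p = 0.207) and 0.28 ± 0.10 (adjusted p = 0.0489) missed the threshold. EXPA4 (AT2G39700, chromosome 2 from 16543832 to 16545746, minus strand) had 14.4, 15.6 and 17.03 CPM in WT, 21.8, 18.0 and 15.2 CPM in the OE APOLO-labelled libraries and 14.0, 14.7 and 12.0 CPM in OE UPAT. The OE APOLO-labelled libraries overlapped WT, with 95% intervals from -0.04 to 0.50 for OE APOLO and from -0.49 to 0.09 for OE UPAT around log2 fold changes of 0.23 and -0.20. The lines differed by -0.43 ± 0.13 (adjusted p = 0.0249), which passed the threshold without OE APOLO C (adjusted p = 0.00567).

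EXPA1 and EXPA10 encode proteins with 74.4% identity. They are also the members that hold CACATGTG, in which CACATG overlaps its reverse complement. EXPA15, with 73.1% identity to EXPA1 and 78.2% to EXPA10, holds no CACATG. The 50 bases around CACATGTG in EXPA1 and EXPA10 are shown for comparison, from 211 and 141 bases before the start.
EXPA1: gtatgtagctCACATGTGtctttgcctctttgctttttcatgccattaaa
EXPA10: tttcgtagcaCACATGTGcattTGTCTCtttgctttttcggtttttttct
The letters around the match are alike only in part. Both stretches hold tttgctttttc after it, while the letters that follow mostly differ. EXPA10 alone holds TGTCTC within this stretch. The likeness was not compared with that of other promoters. Of the pairs named above as closest in protein, none shared its full pattern of calls. EXPA10 and EXPA15 differ in which line was called against WT. EXPA6 was called in both lines and EXPA4 in neither. EXPA3 and EXPA6 were both called higher in OE APOLO against WT, but only EXPA6 was called in OE UPAT against WT.

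**Figure D3:**
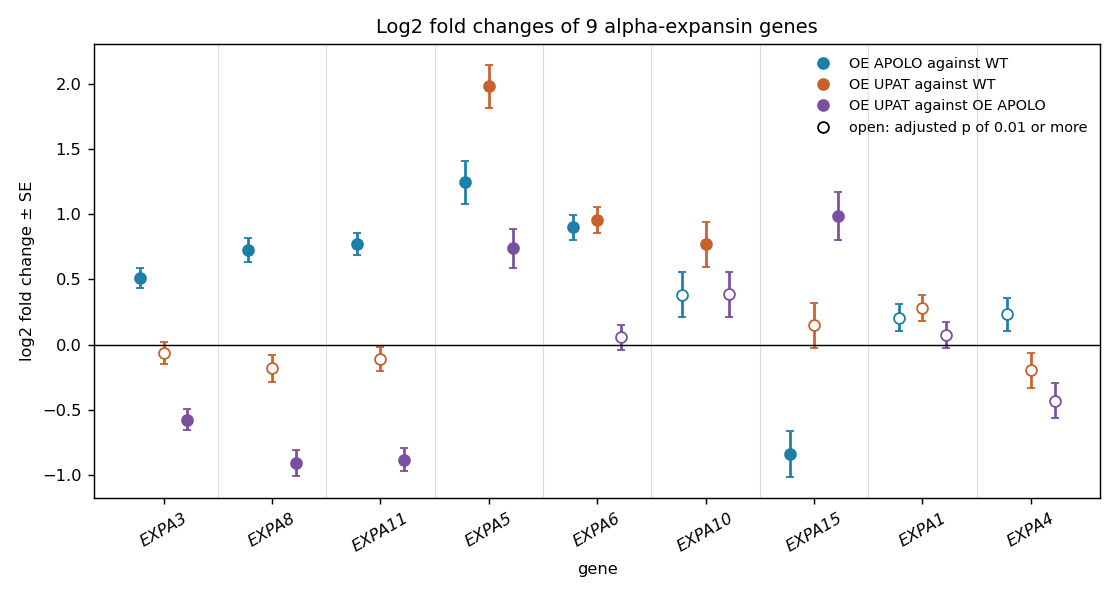
Log2 fold change ± SE of each alpha-expansin gene in the 3 comparisons, with filled points for an adjusted p under 0.01 and open points otherwise. EXPA3, EXPA8 and EXPA11 lie between 0.51 and 0.77 in OE APOLO against WT and near 0 in OE UPAT against WT, EXPA5 reaches 1.98, and EXPA15 lies at -0.84 in OE APOLO against WT.

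The other 27 expansin genes were examined as a whole for comparison. Of these, 14 passed the filter on low counts, 12 were at or under 3 counts in every library and 9 were at 0. In the OE APOLO-labelled libraries, 2 were called higher and 2 lower against WT (6.54% of all genes were called). In OE UPAT 1 was higher and 3 were lower (19.8% of all genes called), and between the lines 3 were lower in OE UPAT, namely EXPA17, EXLA1 and EXLA2 (17.8% of all genes called). The median log2 fold change of the 14 was 0.01, -0.18 and -0.04 in the same order.

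Among the alpha-expansins outside the 9, the calls against WT were all decreases. EXPA9 was lower in both lines, with 24.6 to 26.4 CPM in WT, 16.1 to 19.3 in the OE APOLO-labelled libraries and 16.9 to 18.2 in OE UPAT. Its log2 fold change was -0.56 ± 0.088 (SE; adjusted p = 0.000628) and -0.54 ± 0.092 (adjusted p = 0.000359). EXPA2, which is known for its action in the endosperm of germinating seeds, had 14.5, 12.9 and 10.03 CPM in WT and 6.28, 1.85 and 2.07 CPM in the OE APOLO-labelled libraries (log2 fold change -1.86 ± 0.33, adjusted p = 0.00160). This call was lost without WT A (adjusted p = 0.0104). OE APOLO A, the highest of its group here, is also the library with the highest seed marker sum, and without it the log2 fold change was -2.67. In OE UPAT it had 8.01, 8.604 and 4.19 CPM, below WT but not past the threshold (adjusted p = 0.0587). EXPA17, known from the emergence of lateral roots, was lower in OE UPAT (log2 fold change -2.06 ± 0.41, adjusted p = 0.00135), a call lost without OE UPAT B (adjusted p = 0.0133). Without OE UPAT A the value was -2.92. The EXPA17 call between the lines was lost in 6 of 17 alternatives, with an adjusted p of up to 0.0401. EXPA17 had 2.48 to 3.67 CPM in WT and 0.262 to 1.42 in OE UPAT. The OE UPAT values rest on 13, 5 and 2 counts in replicates A, B and C, of which that of C is under the floor of 3 counts.

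EXPA7 and EXPA18, the root hair expansins, were not called. Both were highest in OE APOLO C, with 22.8 and 21.0 CPM against 12.0 to 14.5 and 10.3 to 11.4 in WT. The summed root hair marker level was also highest in this library, although RHD6 was at its lowest there.

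Of the beta-expansins and expansin-like genes, EXPB3, EXLA1 and EXLA2 were called higher and EXLB1 lower against WT in 1 of the lines each. EXPB3 had 1.58, 2.48 and 1.79 CPM in WT, 3.74, 4.89 and 2.85 in the OE APOLO-labelled libraries and 6.03, 5.45 and 6.68 in OE UPAT. Its log2 fold change was 1.62 ± 0.23 in OE UPAT (SE; adjusted p = 9.32e-05) and 0.97 ± 0.24 in the OE APOLO-labelled libraries (adjusted p = 0.0126), with the order of groups seen in EXPA5. EXLA1 and EXLA2 were higher in the OE APOLO-labelled libraries, by 0.64 ± 0.076 (adjusted p = 7.43e-05) and 1.03 ± 0.13 (adjusted p = 8.82e-05). Both were lower in OE UPAT than in OE APOLO (-0.62 and -0.58, adjusted p = 3.88e-05 and 0.00343), as were EXPA3, EXPA8 and EXPA11. Some reads of the EXLA genes were split between features, so that their levels are uncertain, and the EXLA2 difference between the lines lost its call in 5 of 18 alternatives (DESeq2, thinning, and leaving out OE APOLO B, OE UPAT A or OE UPAT C), with an adjusted p of up to 0.0319. EXLB1 was lower in OE UPAT (-1.51 ± 0.26, adjusted p = 0.000467), with 1.20 to 1.44 CPM against 2.88 to 4.39 in WT.

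**Figure D4:**
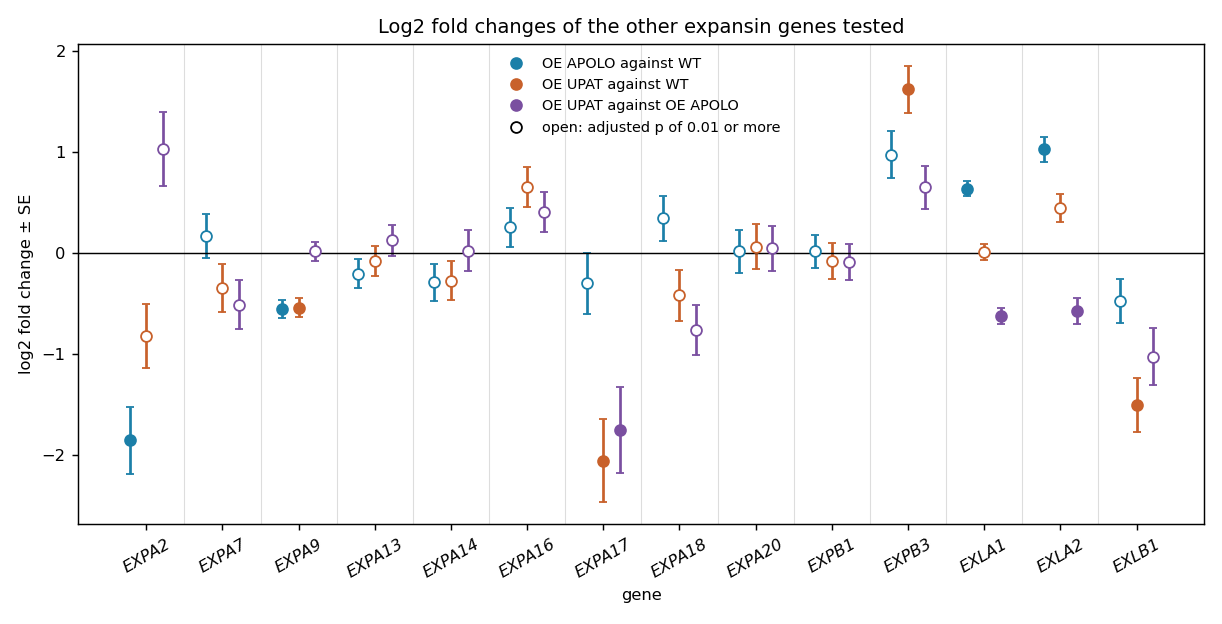
Log2 fold change ± SE of the 14 other expansin genes that were tested, in the 3 comparisons, with filled points for an adjusted p under 0.01. EXPA9 lies at -0.56 and -0.54 against WT, EXPB3 reaches 1.62 in OE UPAT, and EXLA1 and EXLA2 are raised in OE APOLO and lower in OE UPAT than in OE APOLO.

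Since expansins act in an acidic wall, the proton pumps and the PP2C.D phosphatases were examined next. Of 11 pump genes 9 were tested. AHA3, a pump of phloem companion cells, was lower in both lines, with 126 to 128 CPM in WT, 77.0 to 108 in the OE APOLO-labelled libraries and 83.7 to 97.0 in OE UPAT. Its log2 fold change was -0.48 ± 0.099 (SE; adjusted p = 0.00446) and -0.48 ± 0.10 (adjusted p = 0.00195). That of OE APOLO was lost in 6 of 18 alternatives and that of OE UPAT without OE UPAT B (adjusted p = 0.0211). AHA2, a major pump of roots, was called higher in OE UPAT (0.64 ± 0.11, adjusted p = 0.000444), with 646 to 689 CPM against 405 to 463 in WT. In the OE APOLO-labelled libraries it had 648, 443 and 594 CPM (adjusted p = 0.0303), where replicate B overlapped WT. The other major pump, AHA1, was not called in either line.

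All 9 PP2C.D genes were tested. In the OE APOLO-labelled libraries, 2 were called higher and none lower against WT, where 4.27% and 2.27% of all genes were. PP2C-D1 (AT5G02760) had 14.5, 17.9 and 15.7 CPM in WT, 24.0, 29.8 and 26.6 in the OE APOLO-labelled libraries and 15.0, 18.3 and 19.0 in OE UPAT, so that only OE APOLO stood apart. Its log2 fold change was 0.74 ± 0.11 (SE; adjusted p = 0.000436) in OE APOLO against WT and -0.62 ± 0.12 in OE UPAT against OE APOLO (adjusted p = 0.000963). PP2C-D7 was also higher in OE APOLO than in WT (0.93 ± 0.14, adjusted p = 0.000403) and lower in OE UPAT than in OE APOLO (-0.67 ± 0.14, adjusted p = 0.00268), the latter lost in 3 of 18 alternatives. Its OE UPAT libraries (6.03, 6.54 and 6.15 CPM) all lay above WT (5.54, 5.24 and 4.90 CPM), without passing the threshold (adjusted p = 0.228). In OE UPAT against WT, 2 phosphatase genes were called higher and 2 lower, where 10.1% and 9.72% of all genes were, and none moved by more than 0.42 on the log2 scale. The highest and the lowest of these were PP2C-D5 at 0.42 ± 0.072 (adjusted p = 0.000395) and PP2C-D2 at -0.32 ± 0.072 (adjusted p = 0.00311), the latter lost in 5 of 18 alternatives.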

How the data were processed

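Per the study's methods and the labels, the authors made mRNA libraries, trimmed single-end reads with Trimmomatic 0.36, removed ribosomal reads with SortMeRNA, aligned to TAIR10 with STAR 2.5.2b and counted exonic reads with featureCounts (Subread 1.6.5) over Araport11. The files as deposited hold expected counts of each feature, unscaled for depth and in part fractional. Whole counts had been assumed in the design. The values were rounded, and the strand setting is not given in the sources used here.

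The quasi-likelihood test of edgeR 4.0.16 (filterByExpr, then TMM, glmQLFit and glmQLFTest) was run under R 4.3.3 over all 9 libraries in one fit, without covariates, and checked on simulated data. Transposable element rows (0.233% to 0.272% of the counts) were left out. CPM was computed from the deposited values. SE is the absolute log2 fold change over the square root of F, and 95% intervals use the t distribution of the test. The threshold, an adjusted p under 0.01, is that of the study. A count of 3 was the floor, 0.207 to 0.393 CPM, and covers counting error only. No replicates agreed within sampling noise (chi-square per gene 1.76 to 7.13).

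The members and lists were chosen with earlier results of these data known. By rule, the text names the 9 members, the other expansins called, and called pump and phosphatase genes, at most 4 per comparison. PP2C-D2 was named as the lowest called phosphatase gene in OE UPAT against WT. PP2C-D6, also called lower there, had a smaller adjusted p in edgeR's test (0.00156 against 0.00311). EXPA7, EXPA18 and AHA1 were added after their values were seen. The alternatives were DESeq2 1.42.0, RLE and upper-quartile scaling, no filter, at least 10 counts in every library, a replicate block, a fit of only both groups compared, each library left out and other thresholds. Thinning to the smallest library and a spline correction (5 degrees of freedom) for GC content and length were chosen after seeing the data. Coordinates, lengths and sequences are from RefSeq TAIR10.1. Protein identity is from global alignments (Biopython 1.88).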

Additional observations from a re-analysis of the deposited data

How the results depend on the processing

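Of the 14 calls of members over the 3 comparisons, 11 held under all 18 alternatives, each at the same threshold, and 3 were lost under at least 1 (EXPA15 in OE APOLO against WT, EXPA10 in OE UPAT against WT, EXPA5 between the lines). With a minimum absolute log2 fold change of 1 added to the threshold, the members called were 1 in OE APOLO against WT, 1 in OE UPAT against WT and 0 in OE UPAT against OE APOLO. Leaving out each library in turn gave 5 to 6, 2 to 3 and 4 to 6 members called in the same order. With a replicate block the counts were 6, 3 and 5, the same as without it. Correlations of the deviations ranged from -0.25 to 0.175 for replicates with the same letter and from -0.247 to 0.324 for different letters. With 3 libraries per group these deviations depend on each other, so that the check cannot decide whether the letters pair the libraries. The sign changed only for differences between the lines that were not called, when a library was left out: EXPA1 ranged from -0.0653 to 0.163 and EXPA6 from -0.0469 to 0.128 on the log2 scale. The OE UPAT libraries were the smallest. With every library thinned to the smallest, EXPA10 lost its call in OE UPAT against WT (adjusted p = 0.0222), EXPA15 kept its own in OE APOLO against WT (adjusted p = 0.0085), and EXPA5 went to 1.04 and 1.76 against WT on the log2 scale with both calls kept.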
